A study of Homo sapiens with 6 samples.

Results

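The genes described here encode the MHC class I antigen presentation pathway. They are 9 gene symbols of the 18126 in each table: the heavy chains HLA-B, HLA-C, HLA-E and HLA-F, the light chain B2M, the peptide transporter TAP1 and TAP2, the loading factor TAPBP and the transactivator NLRC5. They were chosen by name, with earlier results of these data known, and not every class I heavy chain gene is among them. All 9 passed the filter on low values described below.

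The cells were 786-O, an established human line of clear cell renal carcinoma, the commonest kidney cancer, which arises from tubule epithelium. Cells in 12-well plates were transfected with a control (Control, 3 libraries) or with siTEAD4, by its name an siRNA against the transcription factor TEAD4 (3 libraries). No time after transfection, siRNA sequence or separate culture is given, so the 3 libraries of a group may be technical repeats, and p-values speak only of their spread. The value column headers read "Vehicle" in Control 2 and Control 3 and "Tead_Inhibitor" in all siTEAD4 libraries, so the treatment is uncertain, and groups here follow the sample labels.

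Class I molecules show peptides from inside the cell to CD8 T cells and natural killer cells. Proteasomes cut proteins into peptides, the TAP1 and TAP2 heterodimer carries these into the endoplasmic reticulum, and tapasin (TAPBP) holds empty heavy chains with beta-2 microglobulin (B2M) beside the transporter until a peptide fits. Class I heavy chain and B2M genes are known to be transcribed by NLRC5 with the RFX factors at a promoter module, and by NF-kB and interferon-induced factors at sites near it. Tumours that lose class I are seen less well by T cells.

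Values are FPKM, fragments scaled to gene length and to the number mapped in the library, so levels can be compared between genes. The tables carry no counts, so the depth is unknown. The summed FPKM of a library ranged from 432780 to 496440. TEAD4 itself was at 12.52, 16.99 and 11.28 FPKM in Control and at 8.92, 7.65 and 7.52 FPKM in siTEAD4, 59.1% of the Control mean (log2 fold change -0.68 ± 0.143 SE, limma Benjamini-Hochberg adjusted p = 0.00521). The renal transcription factor gene PAX8 stood at 66.52 to 88.54 FPKM across all 6 libraries and VIM, the mesenchymal filament gene, at 3006.97 to 3648.32 FPKM. The 6 leukocyte markers found summed to 1.35 to 1.88 FPKM in Control and 1.15 to 1.62 in siTEAD4, and the 4 endothelial markers to at most 0.20 FPKM. Of 3 fibroblast markers, DCN was listed at 0 throughout and PDGFRB at 0.13 FPKM or less, while LUM stood at 1.80 to 2.40 FPKM in Control and at 0.67 to 0.75 FPKM in siTEAD4. The 3 together summed to 1.87 to 2.53 and 0.71 to 0.84 FPKM, and their part in the results was not tested. All 6 markers of the line passed the filter on low values, of which PAX2 and CDH6 fell and EPAS1 and LHX1 rose. By group means, CDH6 stood at 19.0% of Control, PAX2 at 53.0%, EPAS1 at 124% and LHX1 at 138%. The call of EPAS1 ended in 9 settings at the 0.05 threshold (adjusted p 0.0732 to 0.168). In bulk RNA, fewer expressing cells and less RNA per cell cannot be told apart.

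Upstream sequence is shown for the 7 genes that fell, so that motifs in these windows can be compared. The source used had no window for HLA-E and NLRC5. Motifs can therefore not be compared between the genes that fell and those that did not. The sequences are from RefSeq (GRCh38.p14), so they are the reference and not the alleles of 786-O. Each is the 250 bases before the annotated start, 5′ to 3′ on the strand of the gene. Capitals mark the NF-kB consensus, the IRF core AANNGAAA and the CCAAT box, on either strand. HLA-B lies at chr6:31357180-31357429 and HLA-C at chr6:31272093-31272342, both on the minus strand, and HLA-F at chr6:29723184-29723433 on the plus strand.
HLA-B: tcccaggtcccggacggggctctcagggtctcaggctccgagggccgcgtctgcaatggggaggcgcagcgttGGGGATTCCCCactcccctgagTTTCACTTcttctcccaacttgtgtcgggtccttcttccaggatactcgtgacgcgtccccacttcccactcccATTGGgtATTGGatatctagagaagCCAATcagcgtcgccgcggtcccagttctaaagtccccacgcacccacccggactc
HLA-C: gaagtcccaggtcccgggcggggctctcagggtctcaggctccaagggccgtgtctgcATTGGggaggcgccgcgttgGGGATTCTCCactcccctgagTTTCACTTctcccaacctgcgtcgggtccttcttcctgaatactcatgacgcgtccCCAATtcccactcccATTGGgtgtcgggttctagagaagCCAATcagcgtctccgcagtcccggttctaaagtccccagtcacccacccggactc
HLA-F: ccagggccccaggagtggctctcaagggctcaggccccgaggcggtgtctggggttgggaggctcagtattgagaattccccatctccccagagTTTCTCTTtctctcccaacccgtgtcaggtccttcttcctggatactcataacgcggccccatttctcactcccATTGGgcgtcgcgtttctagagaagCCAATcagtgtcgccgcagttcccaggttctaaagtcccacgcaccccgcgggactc
The HLA-B and HLA-C windows were identical at 89.0% of aligned positions, HLA-B and HLA-F at 80.4%. In all 3 an IRF core lay between bases -156 and -144 from the start and a CCAAT box between -57 and -52. HLA-B and HLA-C had an NF-kB consensus between bases -177 and -163. No match to that consensus was found in the HLA-F window.

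The other windows are B2M (chr15:44711267-44711516, plus strand), TAP1 (chr6:32853705-32853954), TAP2 (chr6:32838740-32838989) and TAPBP (chr6:33314079-33314328), the last 3 on the minus strand.
B2M: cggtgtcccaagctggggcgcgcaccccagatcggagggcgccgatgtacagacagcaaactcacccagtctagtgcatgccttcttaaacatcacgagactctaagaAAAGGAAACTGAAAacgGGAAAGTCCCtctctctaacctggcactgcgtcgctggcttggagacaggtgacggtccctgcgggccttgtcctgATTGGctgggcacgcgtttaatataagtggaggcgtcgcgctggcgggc
TAP1: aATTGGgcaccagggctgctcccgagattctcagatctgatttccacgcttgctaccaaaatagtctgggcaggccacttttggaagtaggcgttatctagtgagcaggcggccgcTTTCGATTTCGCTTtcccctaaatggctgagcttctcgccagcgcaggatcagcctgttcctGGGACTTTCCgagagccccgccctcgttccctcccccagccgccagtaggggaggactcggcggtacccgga
TAP2: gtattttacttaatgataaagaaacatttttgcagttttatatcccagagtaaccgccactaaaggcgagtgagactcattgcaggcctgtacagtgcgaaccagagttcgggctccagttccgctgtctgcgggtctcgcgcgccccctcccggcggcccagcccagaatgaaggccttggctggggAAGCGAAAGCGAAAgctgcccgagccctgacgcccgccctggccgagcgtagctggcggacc
TAPBP: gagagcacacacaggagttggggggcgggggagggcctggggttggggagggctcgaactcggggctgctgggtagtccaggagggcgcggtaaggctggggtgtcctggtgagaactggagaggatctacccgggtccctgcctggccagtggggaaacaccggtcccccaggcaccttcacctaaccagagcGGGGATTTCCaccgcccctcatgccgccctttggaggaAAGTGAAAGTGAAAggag
The IRF core was found in 7 of 7 windows and in 16.1% of the 14185 upstream windows of genes in the tables. The longer interferon response element, which is that core with GA just before it, was found in HLA-F, B2M, TAP1, TAP2 and TAPBP and in 2.67% of all windows. The NF-kB consensus was found in HLA-B, HLA-C, B2M, TAP1 and TAPBP and in 5.84% of all windows. CCAAT was in 5 of 7 and in 34.7% of all, and the core of the cAMP response element, TGACG, in 4 of 7 and in 26.5%. The TEAD core GGAATG was in 0 of 7 and in 9.88% of all windows, which says only that these letters are not within 250 bases of the start. Such matches are descriptions of sequence, not of binding.

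In the siTEAD4 libraries the pathway was lower at nearly every step: the classical heavy chains, HLA-F, the light chain, both transporter subunits and most of all tapasin. Of the 9 genes, 7 fell and none rose in limma (Benjamini-Hochberg adjusted p under 0.05 over 11411 genes). At an unadjusted p under 0.05 the same 7 fell. The background was high, since 44.9% of all genes tested passed, 18.8% lower and 26.1% higher. Of those calls 58.2% were higher, and 44.5% after TMM-like scaling. The median log2 fold change of the 9 was -0.59, against 0.09 over all genes tested. In 8 of 9 genes the groups did not overlap, with siTEAD4 lower, as in 22.6% of all genes tested (57.7% in either direction).

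**Figure D1:**
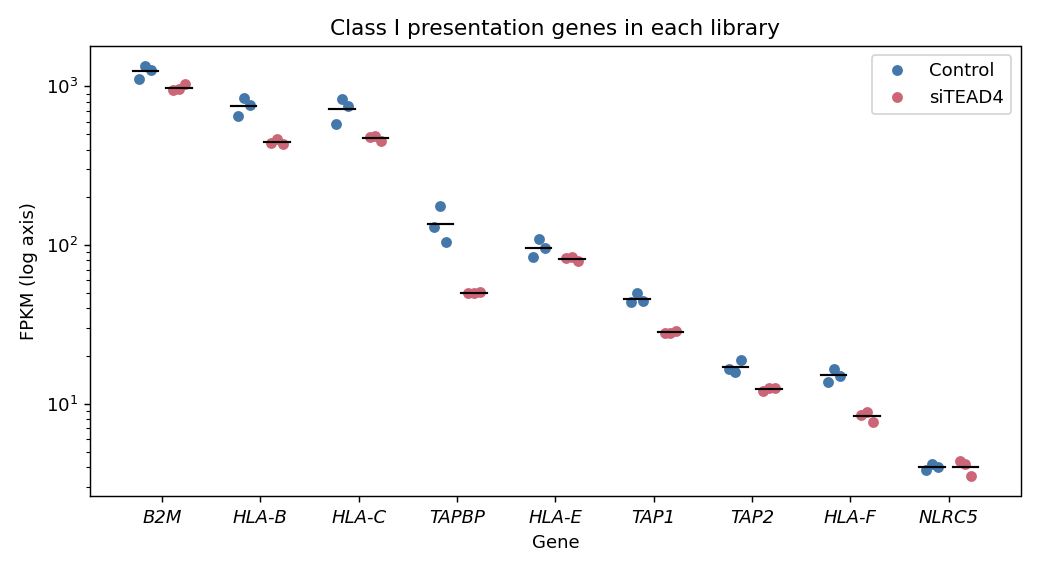
FPKM on a log axis for the 9 genes, with each point a library, blue for Control and red for siTEAD4, and bars at the means of 3 libraries. The groups are separate in every gene except NLRC5, which is near 4 FPKM in both.

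HLA-B and HLA-C encode classical heavy chains, which present peptides to T cells and, for HLA-C above all, engage killer cell receptors. HLA-B stood at 649.93, 843.71 and 766.62 FPKM in Control and at 443.04, 463.82 and 432.26 FPKM in siTEAD4. Every siTEAD4 library was below every Control library, at 59.2% of the mean (-0.75 ± 0.108 SE on the log2 scale, limma adjusted p = 0.000746). HLA-C stood at 576.29, 831.57 and 755.55 FPKM in Control and at 481.66, 489.15 and 452.83 FPKM in siTEAD4. It too fell without overlap, to 65.8% (-0.59 ± 0.133 SE, limma adjusted p = 0.00731). Control 1 was the lowest Control library for both.

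HLA-E presents signal peptides of other class I chains to the inhibitory receptor NKG2A on natural killer cells. Its values were 84.73, 108.88 and 95.73 FPKM in Control and 83.17, 84.61 and 78.91 FPKM in siTEAD4. The gap between Control 1 and the highest siTEAD4 library was small, and the gene did not pass (-0.22, 95% interval -0.45 to 0.01, limma adjusted p = 0.10). Without Control 1 it passed (-0.31, adjusted p = 0.0132), as it did under 4 of the other settings tried. Without Control 2 the difference was smaller (-0.13, adjusted p = 0.138). HLA-F, a non-classical chain that reaches the surface of activated cells, went from 13.76, 16.64 and 14.91 FPKM to 8.51, 8.92 and 7.68 FPKM. Its level fell to 55.4% of Control (-0.78 ± 0.0985 SE, limma adjusted p = 0.000379). Heavy chain genes resemble each other, and 1.7% to 6.7% of the 50-base windows in their longest transcripts also occur in a transcript of another gene. How shared reads were assigned, and how the alleles of 786-O differ from the reference, was not tested.

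B2M, the light chain that every class I heavy chain needs to reach the surface, was the most abundant of the 9. It stood at 1118.83, 1337.12 and 1275.04 FPKM in Control and at 951.43, 962.21 and 1031.32 FPKM in siTEAD4. The groups did not overlap and the level fell to 78.9% (-0.34 ± 0.0991 SE, limma adjusted p = 0.0227). This call was the least firm of the 7, since it ended without Control 3 or without any 1 siTEAD4 library (adjusted p 0.0561 to 0.105, log2 fold change -0.37 to -0.32).

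Summed over the 4 genes, heavy chain transcripts were lower relative to B2M as well. HLA-E alone differed by less than B2M did, at -0.22 against -0.34 on the log2 scale, a contrast that was not tested. The summed FPKM of the 4 heavy chain genes was 1.18, 1.35 and 1.28 times that of B2M in Control 1, 2 and 3, and 1.07, 1.09 and 0.942 times in siTEAD4. This ratio is taken within a library and so does not depend on how libraries were scaled. It differed by -0.30 on the log2 scale without overlap (two-sided exact permutation p = 0.1, the smallest that 3 against 3 libraries can give).

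The transporter genes fell together. TAP1 went from 43.82, 50.02 and 44.31 FPKM in Control to 28.02, 27.93 and 28.95 FPKM in siTEAD4, 61.5% of Control (-0.68 ± 0.0806 SE, limma adjusted p = 0.000269). TAP2 went from 16.61, 15.78 and 18.86 FPKM to 12.02, 12.62 and 12.54 FPKM, 72.5% of Control (-0.43 ± 0.0895 SE, limma adjusted p = 0.00484). Neither gene overlapped between groups. Although the proteins pair one to one, TAP1 was the higher transcript in every library. The ratio of TAP1 to TAP2 was 2.64, 3.17 and 2.35 in Control and 2.33, 2.21 and 2.31 in siTEAD4. Control 3 and siTEAD4 1 almost met on this ratio (log2 difference -0.24, exact permutation p = 0.1). Without Control 2 the difference was -0.12. For TAP2, 35.8% of the 50-base windows of its longest transcript also occur in another annotated gene. An annotated gene model, AL669918.1, overlaps TAP2 on the same strand.

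TAPBP encodes tapasin, the bridge between the transporter and empty class I molecules. It stood at 129.7, 175.52 and 104.6 FPKM in Control, the widest spread of the 9 relative to its mean, and at 49.88, 50.06 and 50.62 FPKM in siTEAD4, the narrowest. The level fell to 36.7% (-1.39 ± 0.160 SE, limma adjusted p = 0.000232). Its 95% interval, -1.76 to -1.03, did not meet that of any of the other 8, of which HLA-F reached lowest at -1.0. The difference between these changes was not tested.

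NLRC5, the transactivator of class I genes, was the lowest of the 9 and did not follow them. Its values were 3.82, 4.2 and 3.97 FPKM in Control and 4.39, 4.16 and 3.52 FPKM in siTEAD4. The groups overlapped, with a log2 fold change of 0.00 (95% interval -0.22 to 0.23, limma adjusted p = 0.975). A change within that interval could not be seen with these libraries.

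**Figure D2:**
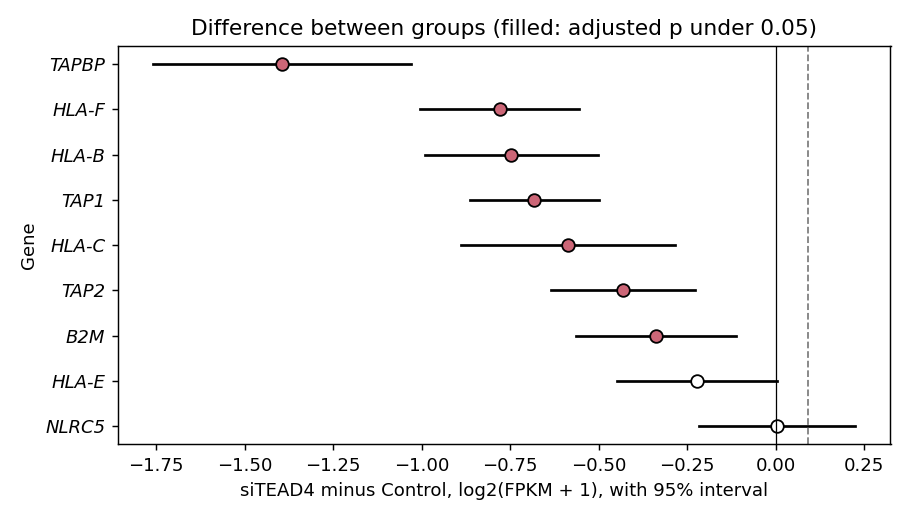
Difference between group means on the log2(FPKM + 1) scale for the 9 genes, with 95% intervals from limma and filled points for an adjusted p under 0.05. The dashed line is the median of all genes tested, 0.09. TAPBP lies lowest at -1.39 and NLRC5 at 0.00.

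In order of level, Control libraries ran B2M, HLA-B, HLA-C, TAPBP, HLA-E, TAP1, TAP2, HLA-F and NLRC5. Neighbours overlapped for HLA-B with HLA-C, TAPBP with HLA-E and TAP2 with HLA-F. In siTEAD4, HLA-E stood above TAPBP without overlap, while HLA-C and HLA-B still overlapped. Among the Control libraries, Control 2 was highest in 8 of the 9 genes and Control 1 lowest in 7. Without Control 2, 7 genes fell and none rose, with a median of -0.48. Control 1 also had the lowest summed FPKM of all libraries and Control 2 the highest. When every library was rescaled to 1 total, 8 fell and none rose, with a median of -0.65. The 9 genes together made up 0.609% to 0.682% of the summed FPKM in Control and 0.429% to 0.440% in siTEAD4.

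Across the 6 libraries, the profile of HLA-B was most like that of HLA-F among the 9 (Pearson r = 0.991) and that of TAP1 most like TAPBP (0.985). Among 6359 tested genes outside the lists with a mean of at least 10 FPKM, the profile nearest to HLA-B was TMEM132A (0.999), to HLA-F SCARB1 (0.999), to TAP1 TMEM106C (0.999), to TAPBP MYADM (0.998) and to B2M COQ2 (0.992). For NLRC5 the nearest of the 9 was HLA-E, at 0.396. These values rest on 6 libraries in 2 groups, so any gene that differs between the groups scores high.

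Most genes listed for peptide trimming, folding and loading, chiefly in the endoplasmic reticulum, fell, several by more than the class I chains. This reticulum list also holds general folding genes and an endosomal peptidase. Of 10 tested, 8 fell and 1 rose, with a median log2 fold change of -0.93. Over all genes tested, 18.8% were lower and 26.1% higher. ERAP2 and ERAP1, the aminopeptidases that trim peptides to class I length, went from 42.9 ± 10.1 to 12.0 ± 0.664 FPKM (SD, n = 3; -1.73) and from 13.6 ± 3.18 to 4.82 ± 0.337 FPKM (-1.30). The glycan enzymes of the folding cycle also fell: GANAB, a glucosidase II subunit, from 218 ± 6.11 to 74.5 ± 0.172 FPKM (-1.54) and UGGT1, the reglucosylating folding sensor, from 17.9 ± 2.84 to 5.68 ± 0.212 FPKM (-1.49). LNPEP (-1.0), an endosomal trimming peptidase, TAPBPL (-0.85), the tapasin-related editor, PDIA3 (-0.56), the loading complex disulfide isomerase, and the chaperone gene CANX (-0.49) fell. At the 0.05 threshold CANX lost its call in 8 of the settings tried, without any 1 library except Control 2 among them. CALR, whose chaperone product holds the heavy chain in the loading complex, was at 994 ± 116 and 875 ± 28.0 FPKM (SD, n = 3) and did not pass (-0.18, limma adjusted p = 0.188), though it did under 3 other settings (adjusted p 0.0162 to 0.0349). HSPA5, the general chaperone BiP, rose from 322 ± 33.0 to 432 ± 15.8 FPKM (0.43, limma adjusted p = 0.00669).

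Of the interferon-inducible proteasome subunits, PSMB8 and PSMB9 fell. PSMB8 stood at 88.33, 111.39 and 98.51 FPKM in Control and at 60.30, 68.21 and 65.69 FPKM in siTEAD4 (-0.61 ± 0.10 SE, limma adjusted p = 0.00147). PSMB9 stood at 42.28, 62.00 and 53.65 FPKM and at 30.67, 30.84 and 31.01 FPKM (-0.74 ± 0.127 SE, limma adjusted p = 0.00187). Its start lies 488 bases from that of TAP1 on the opposite strand, and TAP1 had a log2 fold change of -0.68. Without knowledge of strand, reads of genes that overlap in this cluster cannot be told apart. PSMB10 (-0.19), PSME1 (-0.17) and PSME2 (-0.10), the last 2 encoding the PA28 activator, did not pass. So 2 of 5 fell and none rose, with a median of -0.19, where 18.8% of all genes tested were lower. Without Control 1, PSMB10 and PSME2 passed too, and 4 of 5 fell, with a median of -0.33. Without Control 2 the same number fell as with it, with a median of -0.07. PSME1 passed as lower under 3 other settings (adjusted p 0.0318 to 0.0329).

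Among the constitutive subunits PSMB5 (0.32, limma adjusted p = 0.0271) and PSMB7 (0.32, adjusted p = 0.0180) rose and PSMB6 (0.11) did not pass. These 2 rises were lost without Control 3, without any 1 siTEAD4 library, after rescaling to 1 median and after TMM-like scaling. That of PSMB5 was also lost without a filter (limma adjusted p = 0.0683). Without Control 2, PSMB6 passed as higher (0.23, limma adjusted p = 0.0153), and all 3 rose. Ratios within a library do not depend on scaling. PSMB8 was at 0.706, 0.699 and 0.729 of PSMB5, the subunit it replaces, in Control and at 0.337, 0.399 and 0.381 in siTEAD4. PSMB9 to PSMB6 went from 0.421 ± 0.0243 to 0.230 ± 0.00544 and PSMB10 to PSMB7 from 0.279 ± 0.0301 to 0.194 ± 0.0103 (SD, n = 3). None of these 3 ratios overlapped between groups, at log2 differences of -0.94, -0.87 and -0.52 (exact permutation p = 0.1 each, 0.1 adjusted over the 3).

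**Figure D3:**
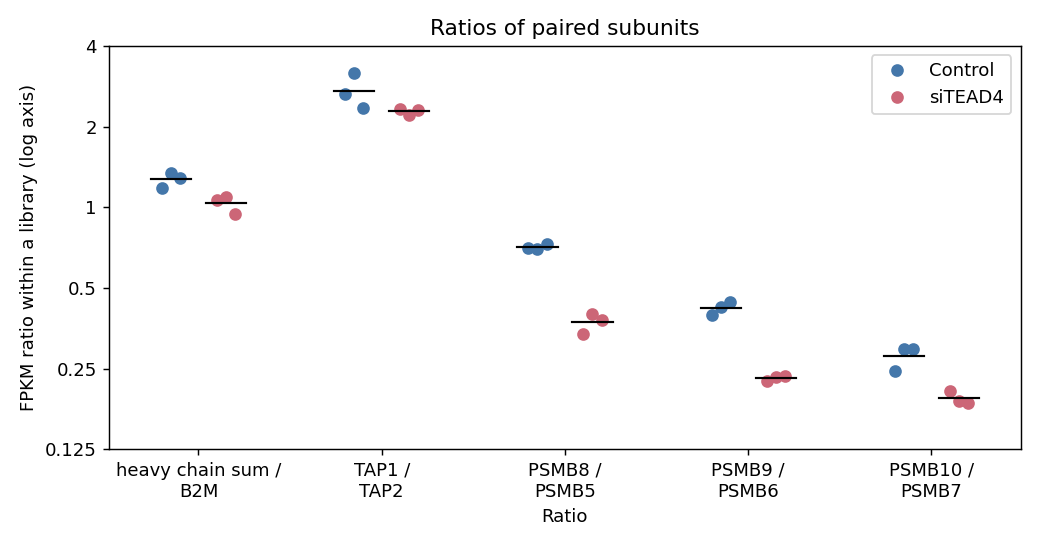
Ratios of FPKM within each library on a log axis: summed heavy chains to B2M, TAP1 to TAP2, and each inducible proteasome subunit to its constitutive counterpart. Points are libraries, blue for Control and red for siTEAD4, with bars at the means of 3. All 5 ratios are lower in siTEAD4, PSMB8 to PSMB5 by most (-0.94 on the log2 scale).

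Among transcription factors that act on class I promoters, 2 of 12 tested fell and none rose, a share near the 18.8% of all genes tested that were lower. RFX5, the DNA-binding subunit of the RFX complex at class I and class II promoters, fell from 13.43, 13.17 and 13.86 FPKM to 6.40, 6.57 and 6.91 FPKM (-0.93 ± 0.0801 SE, limma adjusted p = 5.08e-05). The NF-kB subunit gene RELA fell from 29.3 ± 4.09 to 15.9 ± 0.785 FPKM (SD, n = 3; -0.84). The other 10 did not pass, among them RFXAP (0.09) and RFXANK (-0.08), the other RFX subunits. IRF1, the interferon-induced activator of class I promoters, was at 30.03, 38.05 and 34.10 FPKM in Control and at 32.05, 32.82 and 30.05 FPKM in siTEAD4, which overlapped (-0.10, 95% interval -0.32 to 0.12, limma adjusted p = 0.440). The median of the 12 was 0.09, as over all genes tested. Without Control 2, 3 fell and 1 rose, NFKB1 and NFYC passing as well, with a median of 0.03. CREB1 passed as higher without Control 1 (0.43, limma adjusted p = 0.0333).

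All 4 interferon receptor genes fell: IFNAR2 (-0.76), IFNGR1 (-0.70), IFNAR1 (-0.39) and IFNGR2 (-0.33). IFNAR2, a chain of the type I receptor, went from 27.0 ± 0.811 to 15.6 ± 0.431 FPKM, and IFNGR1, the ligand-binding chain for interferon gamma, from 26.7 ± 3.45 to 16.0 ± 1.68 FPKM (SD, n = 3). With the feedback inhibitor SOCS3 (-0.44), 5 of 12 genes of this group fell, and 1, the inhibitor SOCS1 (0.51, limma adjusted p = 0.0255), rose, with a median of -0.17. The shares over all genes tested were 18.8% lower and 26.1% higher. Without Control 2, 7 fell and 2 rose, with a median of -0.25. The kinase genes JAK1 (-0.15), JAK2 (0.38) and TYK2 (-0.04), and STAT2 (-0.18) and IRF9 (0.02), subunits of the type I interferon transcription complex, did not pass. The call of IFNAR1 ended without Control 3, siTEAD4 1 or siTEAD4 2 (adjusted p 0.0524 to 0.0598), and that of SOCS1, at the 0.05 threshold, in 7 settings, without Control 3 or any 1 siTEAD4 library among them (0.0516 to 0.102 over the 7). Without Control 2, JAK1 passed as lower (adjusted p = 0.00620). JAK2 passed as higher in 6 settings (0.0115 to 0.0498) and STAT2 as lower in 5 (0.0329 to 0.0428).

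Of 5 chromatin repressors known to silence class I genes, EZH2 (-0.33), the methyltransferase of the polycomb complex, and EHMT2 (-0.44), a histone H3 lysine methyltransferase, fell, EED (0.38), a polycomb subunit, rose, and SUZ12 and DNMT1 did not pass. With 3 of 5 called, the share is near the 44.9% over all genes tested, given so few genes. DNMT1 passed as lower in 5 settings (adjusted p 0.0143 to 0.0488). The call of EZH2 ended without Control 3, siTEAD4 1 or siTEAD4 2 (adjusted p 0.0519 to 0.0758). Of 6 tested peptidases that destroy or trim peptides in the cytosol, LAP3 (0.46) and TPP2 (0.41) rose and none fell, with a median of 0.20. Over so few genes this share is near the 26.1% of all genes tested that were higher. LAP3, leucine aminopeptidase, went from 43.4 ± 0.589 to 60.1 ± 2.43 FPKM (SD, n = 3). At the 0.05 threshold TPP2 lost its call in 8 settings (adjusted p 0.0515 to 0.121), and without Control 1 a total of 4 rose.

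**Figure D4:**
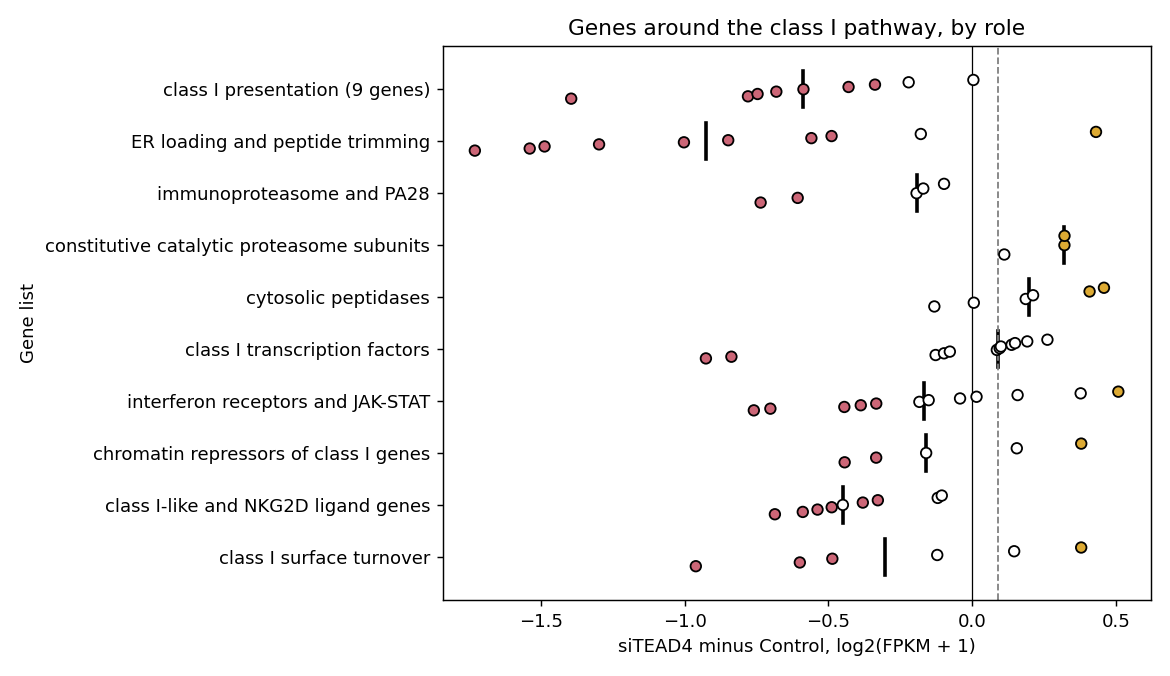
Difference between groups on the log2(FPKM + 1) scale for each tested gene, by role. Red points fell, yellow points rose and white points did not pass an adjusted p of 0.05; thick bars are list medians and the dashed line is the median of all genes tested, 0.09. The reticulum list has the lowest median (-0.93) and the constitutive proteasome subunits the highest (0.32).

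Class I-like genes fell in 6 of 9 tested, with a median of -0.45, where 18.8% of all genes tested were lower. MICA, a stress-induced ligand of the natural killer receptor NKG2D encoded beside HLA-B, went from 37.10, 47.23 and 43.13 FPKM to 27.79, 28.74 and 26.83 FPKM (-0.59 ± 0.0980 SE, limma adjusted p = 0.00155). HFE (-0.69), which regulates iron uptake, and MR1 (-0.54), which presents microbial metabolites, fell, as did FCGRT (-0.49), the neonatal Fc receptor, ULBP3 (-0.38), an NKG2D ligand, and PROCR (-0.33), the endothelial protein C receptor. At the 0.05 threshold the last 3 each lost their calls in 5 or 6 settings (adjusted p 0.0574 to 0.135), and without siTEAD4 1 or siTEAD4 2 only 3 of the 9 fell. MICB (-0.11), ULBP2 (-0.12) and HLA-G (-0.45, limma adjusted p = 0.0960) did not pass. The other 5 genes of this list were below the filter, at 1.08 FPKM or less.

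Most class II presentation genes were near 0 in both groups. Of 13, 11 were below the filter, at 1.29 FPKM or less. Among them CIITA, the class II transactivator and relative of NLRC5, stood at 0.39 to 0.58 FPKM across the 6 libraries, and HLA-DRA at 0.08 FPKM or less. CD74, the invariant chain, fell from 6.23 ± 1.38 to 3.22 ± 0.477 FPKM (SD, n = 3; -0.77, limma adjusted p = 0.00344), and HLA-DMA (-0.21) did not pass.

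Of 6 tested genes that act on class I at or on its way to the surface, SPPL3 (-0.96), a protease whose activity shapes the glycolipids that shield class I, MARCHF9 (-0.60), a ubiquitin ligase that removes class I from the surface, and SUSD6 (-0.49), which directs class I to lysosomes, fell. IRGQ (0.38), an autophagy receptor for misfolded class I, rose. TMEM127 (-0.12) and WWP2 (0.15), which act with SUSD6, did not pass. For comparison, 18.8% of all genes tested were lower and 26.1% higher. SPPL3 went from 12.4 ± 1.05 to 5.89 ± 0.0702 FPKM (SD, n = 3). The median of the 6 was -0.30. After removal of a length and GC trend, WWP2 passed as higher (0.22, limma adjusted p = 0.0218). Of the 5 then tested, 2 fell and 2 rose, with a median of -0.05.

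The pathway is spread over 3 chromosomes. HLA-F (29723434 to 29738532), HLA-E (30489509 to 30494194), HLA-C (31268749 to 31272092), HLA-B (31353875 to 31357179), TAP2 (32821831 to 32838739), TAP1 (32845209 to 32853704) and TAPBP (33299694 to 33314078) lie in the MHC on chromosome 6 (RefSeq, GRCh38.p14). B2M (44711517 to 44718145) is on chromosome 15 and NLRC5 (56989557 to 57083520) on chromosome 16. Between HLA-F and TAPBP, 73 tested genes in none of the lists above had 32 lower and 7 higher calls, or 43.8% lower, with a median log2 fold change of -0.11. Lower calls were thus more frequent in that stretch than the 18.8% over all genes tested, also outside the class I pathway, and no test was made of this count.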

How the data were processed

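RNA was extracted with Trizol and sequenced on BGISEQ-500, per the labels' protocols. The authors deposited 1 table of FPKM per library, per the file headers of 5 tables; the header of Control 1 names no unit, and its values were taken as FPKM. Per the submitters' processing notes, GRCh38 was used. The aligner, the counter, the annotation and the strandedness were not given in the sources used here.

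Genes at 1 FPKM or more in at least 3 of 6 libraries (11411) were fitted as log2(FPKM + 1) with limma 3.58.1 (trended eBayes, R 4.3.3), by group alone. P-values are two-sided and Benjamini-Hochberg adjusted over all of them, with a threshold of 0.05. Fold changes are on the log2(FPKM + 1) scale, which understates low genes. Ratios within a library were compared by exact permutation. Whole reads could not be recovered: 13.5% of 950 ratios of low values lay within 0.1 of a whole multiple, against 20% for an even spread. The fit was tested on simulated data with independent noise for each gene. Such data cannot show false calls from variation that genes of a library share.

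The genes, lists and tests were chosen with earlier results of these data known. All 9 genes are named, and from each list the called genes with the largest changes and any exception to a count. Some genes are not reported here. SDs and intervals cover 3 libraries a group.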

Additional observations from a re-analysis of the deposited data

How the results depend on the processing

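The fit was repeated under 19 alternatives; rescaling to 1 total and removal of a length and GC trend were chosen after seeing the data. HLA-B, HLA-C, HLA-F, TAP1, TAP2 and TAPBP kept their direction and call in all 19. B2M kept its direction but lost its call without a filter (adjusted p = 0.0615), at a threshold of 0.01, and without Control 3 or any 1 siTEAD4 library. HLA-E passed after TMM-like scaling (-0.31), quantile normalization (-0.26), rescaling to 1 total (-0.28), trend removal (-0.20) and without Control 1 (-0.31). The number of the 9 genes called ran from 6 to 8, never higher in siTEAD4, and their median from -0.71 to -0.48. Of all genes, 5123 were called, 3087 at a threshold of 0.01, and 3415 (without siTEAD4 1) to 6689 (without Control 2) when 1 library was left out. The median of all genes, 0.09, was 0.01 after TMM-like scaling. Same-numbered libraries correlated at -0.163, 0.272 and 0.09 in their deviations from the group means, so the numbers were not taken as pairs. With the replicate number as a block, 5180 genes and 7 of the 9 were called, and JAK2 and HLA-G passed. Every call with an adjusted p over 0.01 also ends at that threshold. All ratios kept their direction without any 1 library, the ratio of TAP1 to TAP2 running from -0.34 to -0.12. Read depth is unknown, so the counting error of low genes such as NLRC5 cannot be given.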
